A study of Homo sapiens with 6 samples.

Results

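The genes described here are the ligands of the inhibitory T-cell receptor PD-1, their neighbours on the short arm of chromosome 9, and 2 genes whose products stabilise PD-L1. They are CD274 (PD-L1), PDCD1LG2 (PD-L2), JAK2, PLGRKT, RIC1, ERMP1, KIAA2026 and RCL1 at 9p24.1, with CMTM6 on chromosome 3 and CMTM4 on chromosome 16. They were chosen by symbol, 10 of the 28278 gene symbols in each count table, and all 10 passed the filter on low counts. Polyadenylated RNA of RKO, an established line from a human colon carcinoma, was sequenced in 3 libraries of GSK3B-knockout cells and 3 libraries of GSK3B wild-type cells. No other allele, agent or time point is given for either group. Nothing in the labels tells by what method GSK3B was disrupted, whether each group was 1 clone, or whether the replicates were grown apart. All p-values thus reflect the spread between these libraries alone, which may be technical.

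PD-L1 on a tumour cell binds PD-1 on a T cell and restrains that T cell, and PD-L2 binds the same receptor. CD274 transcription is known to respond to interferon gamma through JAK1, JAK2 and IRF1, and JAK2 lies beside CD274, so that 9p24.1 amplification in some lymphomas raises both. GSK3B, a serine/threonine kinase, is known to phosphorylate unglycosylated PD-L1 protein and mark it for degradation through the ubiquitin ligase adaptor BTRC. CMTM6 and CMTM4 are membrane proteins that keep PD-L1 from lysosomal or proteasomal destruction. The counts here measure transcripts, and the question put to them was whether CD274 and PDCD1LG2 differed between the groups alone or with the genes around them.

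Promoter windows of CD274, of PLGRKT, the nearest tested gene before it, and of ERMP1, which lies beyond PDCD1LG2 and RIC1, are shown because these genes differed in how they moved within 1 locus. The windows are from RefSeq on GRCh38.p14, which covers 8 of the 10 genes; PDCD1LG2 and KIAA2026 are named only. Each holds 250 bases before and 50 after the annotated start, is written 5′ to 3′ on the strand of the gene, and has matches to the searched motifs in capitals. The CD274 window is chr9:5450292-5450591 on the plus strand, that of PLGRKT is chr9:5437876-5438175 on the minus strand, and that of ERMP1 is chr9:5833068-5833367 on the minus strand.
CD274: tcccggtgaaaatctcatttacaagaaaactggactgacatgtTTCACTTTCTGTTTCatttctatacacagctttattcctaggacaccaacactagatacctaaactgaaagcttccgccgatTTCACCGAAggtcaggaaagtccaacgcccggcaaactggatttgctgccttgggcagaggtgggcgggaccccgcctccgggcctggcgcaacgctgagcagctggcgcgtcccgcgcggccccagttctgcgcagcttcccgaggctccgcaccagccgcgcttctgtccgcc
PLGRKT: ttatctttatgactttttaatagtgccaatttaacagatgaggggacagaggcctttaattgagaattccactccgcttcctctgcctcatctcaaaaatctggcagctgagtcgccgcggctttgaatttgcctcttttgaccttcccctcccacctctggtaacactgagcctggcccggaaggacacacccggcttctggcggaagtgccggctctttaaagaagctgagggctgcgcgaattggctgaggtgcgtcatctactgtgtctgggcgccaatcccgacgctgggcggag
ERMP1: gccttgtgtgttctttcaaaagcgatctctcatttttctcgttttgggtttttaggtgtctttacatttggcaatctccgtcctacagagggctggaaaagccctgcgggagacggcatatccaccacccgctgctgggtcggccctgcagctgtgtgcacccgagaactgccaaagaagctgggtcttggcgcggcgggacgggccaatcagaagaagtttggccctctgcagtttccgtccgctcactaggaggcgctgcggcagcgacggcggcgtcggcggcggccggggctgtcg
The motifs were searched on both strands: TTCNNNGAA, the STAT site; GAAANNGAA, an interferon-response core; TGAGTCA, the AP-1 site; CACGTG, the E-box; ACGTG, the hypoxia-response core, which every CACGTG also holds; ATCAAAG, a TCF site; and TATAAA. The CD274 window held 1 STAT match, TTCACCGAA, at -125 bases from the start. It also held 2 overlapping matches of the interferon-response core on the minus strand, which read TTCACTTTC and TTCTGTTTC on the printed strand, at -207 and -201 bases from the start. Over 35116 RefSeq windows of this length, 7.66% held the STAT motif and 8.11% the interferon-response core. The PLGRKT and ERMP1 windows held none of the 7 motifs, and neither did those of RIC1 and CMTM4. RCL1 had 1 CACGTG (7.26% of windows), CMTM6 had 1 ATCAAAG (2.62%), and 1 of the 4 JAK2 windows had an ACGTG (21.4%). These are matches of letters and were not measured as bound sites.

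The 6 libraries had similar depth, 32379369 to 33558362 counts. GSK3B had 45.95, 47.5 and 47.1 CPM (counts scaled to a common library size by TMM) in knockout libraries 1 to 3, against 99.0, 97.6 and 91.4 in wild-type libraries 1 to 3. The knockout level was thus 48.8% of wild type (log2 fold change -1.04 ± 0.05, SE; adjusted p = 1.88e-12 in edgeR's quasi-likelihood test, n = 3 per group). In bulk RNA, fewer cells with the transcript and less of it per cell cannot be told apart, and a gene-level count does not show how the gene was altered. The paralog GSK3A had 86.4 ± 2.29 CPM in knockout and 84.5 ± 4.57 CPM in wild-type libraries (SD, n = 3), with an adjusted p of 0.731 in the same test. Of 14409 tested genes, 13.5% were called, meaning that their adjusted p was under 0.05. Those higher in the knockout made up 6.36% and those lower 7.18%. Groups did not overlap in 31.3%. Wild-type library 3 stood apart by base composition: relative to the mean of all libraries, its genes in the lowest of 4 GC classes were at a median of -0.11 and those in the highest class at 0.11 on the log2 scale. Of 12 leukocyte markers, 6 were at 0, among them PTPRC and CD3E, and the summed level, almost all of it CD68, was 770.6 to 777.4 CPM in knockout and 757.0 to 781.8 CPM in wild-type libraries. The 10 fibroblast markers summed to 1.12 to 1.23 CPM in knockout and 2.37 to 6.22 CPM in wild-type libraries, with FAP at 0. The 8 endothelial markers summed to 3.11 to 3.37 CPM in knockout and 3.77 to 5.92 CPM in wild-type libraries, with CDH5, TEK and EMCN at 0. The part of these low marker levels in the results was not tested. The 12 colon epithelium markers summed to 138.8 to 143.7 CPM in knockout and 136.2 to 142.7 CPM in wild-type libraries, mostly KRT18 and KRT8. CDH1, CDX1 and CEACAM5 were at 0 in all 6, and EPCAM averaged 1.07 CPM in knockout and 3.43 CPM in wild-type libraries. EPCAM was called lower in the knockout (log2 fold change -1.68, edgeR adjusted p = 2.59e-05). So were PDGFRB (-1.43), COL1A1 (-1.66) and ESAM (-0.54), while no tested marker was called higher. DESeq2 and limma-voom each called 1 fibroblast and 0 endothelial markers lower. The part of these differences in the results was not tested either. A 0 in these tables is not read as absence, since TJP1, FBL and ZYX, which dividing cells generally use, were also listed at 0.

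Both PD-1 ligands were higher in the knockout. CD274 had 352.7, 349.1 and 361.5 CPM in knockout libraries 1 to 3, against 262.2, 265.6 and 236.8 CPM in wild-type libraries 1 to 3. The lowest knockout library was well above the highest wild-type library, and wild-type library 3 was the lowest of all. CD274, at 5450503 to 5470566 on the plus strand of chromosome 9 (hg38), rose 1.39-fold (95% interval 1.31 to 1.47; log2 fold change 0.48 ± 0.04, SE; adjusted p = 1.44e-08 in edgeR's quasi-likelihood test, n = 3 per group). An exact permutation test of log2 CPM gave p = 0.1, which is the lowest it can give with 3 libraries a side, here as for each non-overlapping gene. Among the 2327 tested genes averaging 100 CPM or more, CD274 ranked 2 by the size of its rise, after the chaperone gene HSPH1. That ranking was made after the values were seen, and 36 genes called higher had a larger log2 fold change at any level.

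PDCD1LG2 was a low-count gene with a rise of similar proportion. It had 7.25, 6.96 and 5.74 CPM in knockout libraries 1 to 3, against 4.7998, 4.49 and 3.93 CPM in wild-type libraries 1 to 3. These values rest on 238, 224 and 191 counts in knockout and 158, 147 and 131 counts in wild-type libraries, and the exact Poisson interval of the lowest knockout count, 164.9 to 220.1, crosses that of the highest wild-type count, 134.3 to 184.6. Such intervals cover counting error only. The groups did not overlap, and library 3 was the lowest of its group on each side. PDCD1LG2, at 5510570 to 5571254 on the plus strand, rose 1.51-fold (95% interval 1.24 to 1.83; log2 fold change 0.59 ± 0.13, SE; edgeR adjusted p = 0.00437, n = 3 per group).

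The 2 ligands stood at very different levels. Per kilobase of exon, CD274 had 86.3 CPM in knockout and 62.0 CPM in wild-type libraries, at percentile 96.0 of the tested genes. PDCD1LG2 had 2.81 CPM per kilobase in knockout and 1.86 in wild-type libraries, at percentile 27.1. CD274 was therefore 30.7 times PDCD1LG2 in knockout and 33.3 times in wild-type libraries on this scale. Within libraries, the ratio of their CPM was 48.7, 50.1 and 63.0 in knockout and 54.6, 59.1 and 60.2 in wild-type libraries. These overlap, with a mean log2 difference of -0.11 (two-sided exact permutation p = 0.4, adjusted p = 0.4 over 12 ratios, n = 3 per group). That p does not show that the ligands rose by the same amount. CD80, which also binds PD-L1, had 2, 3 and 0 counts in knockout and 3, 1 and 6 counts in wild-type libraries. PDCD1, the receptor itself, had 0, 2 and 1 counts in knockout and 4, 0 and 4 counts in wild-type libraries, too few for a comparison.

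**Figure D1:**
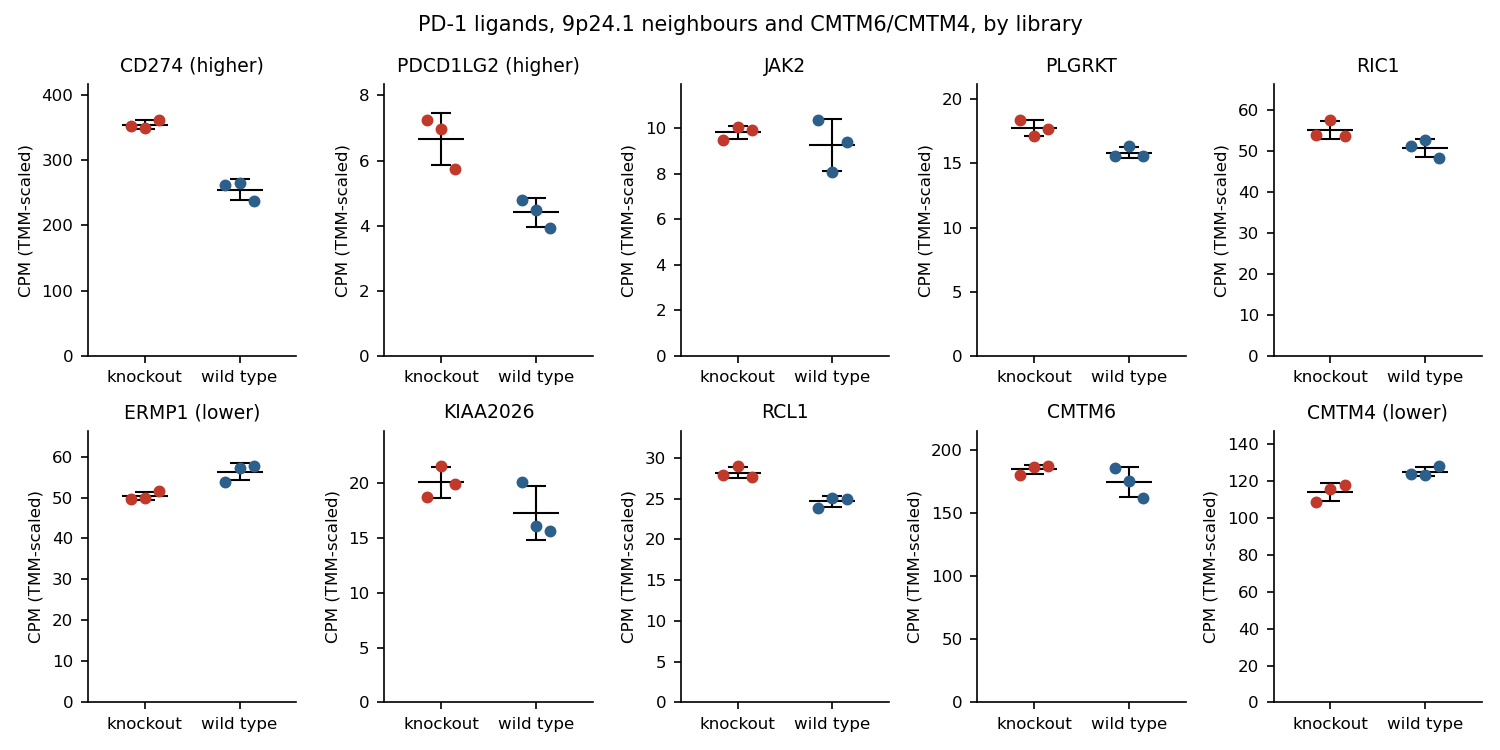
CPM (TMM-scaled, axes from 0) of the 10 genes in each knockout (red, left) and wild-type (blue, right) library, with the mean and SD of the 3 libraries per group in black. CD274 (349.1 to 361.5 against 236.8 to 265.6 CPM) and PDCD1LG2 are labelled higher, ERMP1 and CMTM4 lower, and the other 6 genes passed the test in neither direction.

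No neighbour passed the test in the direction of the ligands. Of the 6 other genes at 9p24.1, 0 were called higher, 1 was called lower and 5 did not pass the test, and their median log2 fold change was 0.14, against 0.00 over all tested genes. By GC class, the median of tested genes was 0.07 in the lowest class, which holds JAK2, PLGRKT, KIAA2026 and both ligands. It was 0.02 in the next class (RIC1 and ERMP1) and -0.02 in the class above that (RCL1). Since 6.36% of all tested genes were called higher and 7.18% lower, counts of 0 and 1 among 6 genes lie near those shares. DESeq2 and limma-voom each also called 0 higher and 1 lower among these 6, and at an unadjusted p under 0.05 in edgeR 4 were higher and 1 lower. Over all 14409 tested genes, both directions together, a gene with an unadjusted edgeR p of 0.0499 ranked 4031. The share among these 6 neighbours was larger than that, mostly in the direction of the ligands, and was not tested as a set. The unadjusted counts here and below are to be read beside that rank. All 10 genes together gave 4 calls, 2 in each direction, with 7 not overlapping between groups and 8 with a positive log2 fold change. Over all tested genes 13.5% were called and 31.3% did not overlap.

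PLGRKT, which encodes a plasminogen receptor of the cell surface, is the closest tested gene and starts 12.6 kb before CD274 on the opposite strand (5357973 to 5437878). It had 18.4, 17.1 and 17.7 CPM in knockout and 15.6, 16.4 and 15.6 CPM in wild-type libraries. The groups did not overlap, but the change of 1.12-fold (log2 fold change 0.16 ± 0.08, SE) did not pass the test over all genes (edgeR quasi-likelihood test, adjusted p = 0.173). RIC1, part of the exchange factor for the Golgi GTPase RAB6, begins 179 kb beyond the CD274 start (5629025 to 5776557, plus strand). Its level was 54.0, 57.6 and 53.7 CPM in knockout and 51.3, 52.6 and 48.3 CPM in wild-type libraries. These groups, too, were apart by less than the test required (1.09-fold, log2 fold change 0.12 ± 0.06, SE; edgeR adjusted p = 0.160).

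ERMP1, a metallopeptidase of the endoplasmic reticulum, was the 1 neighbour called, and it was lower. It had 49.7, 49.9 and 51.5 CPM in knockout libraries, against 53.9, 57.3 and 57.6 CPM in wild-type libraries, with no overlap. ERMP1 (5765076 to 5833117, minus strand) fell to 89.5% of wild type (log2 fold change -0.16 ± 0.05, SE; edgeR adjusted p = 0.0473, n = 3 per group). The call was lost when any of knockout libraries 1, 2 or 3 or wild-type libraries 2 or 3 was left out, with an adjusted p of up to 0.169. ERMP1 and RIC1 share 286 bases of exon on opposite strands, and since the sources used here do not give the strand setting, reads from that stretch cannot be assigned to either. The ratio of RIC1 to ERMP1 within a library was 1.09, 1.16 and 1.04 in knockout and 0.953, 0.918 and 0.838 in wild-type libraries (exact permutation p = 0.1, adjusted p = 0.12 over 12 ratios, n = 3 per group).

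JAK2, the tyrosine kinase that carries the interferon gamma signal, starts 466 kb before CD274 (4984390 to 5128183, plus strand). It had 9.47, 10.04 and 9.92 CPM in knockout and 10.4, 8.07 and 9.37 CPM in wild-type libraries, so that the knockout values lay inside the wild-type range. The log2 fold change of 0.08 ± 0.11 (SE; 95% interval -0.14 to 0.30; edgeR adjusted p = 0.669) had an interval whose upper bound is below the estimate for CD274. Without wild-type library 2 it was -0.0074. RCL1, which takes part in processing of ribosomal RNA, lies on the far side of JAK2 (4792869 to 4885917, plus strand). It had 27.9, 28.9 and 27.7 CPM in knockout and 23.9, 25.1 and 24.98 CPM in wild-type libraries. These did not overlap, and RCL1 came close to the threshold (1.14-fold, log2 fold change 0.19 ± 0.07, SE; edgeR adjusted p = 0.0541). With a correction for GC content it passed (log2 fold change 0.23, adjusted p = 0.00707), and it passed without wild-type library 3. KIAA2026 (5881596 to 6007901, minus strand) had 18.8, 21.5 and 19.9 CPM in knockout and 20.1, 16.1 and 15.6 CPM in wild-type libraries. Wild-type library 1 lay among the knockout values, and the log2 fold change of 0.22 ± 0.09 (SE; edgeR adjusted p = 0.117) passed the test in 1 of the 15 alternatives, when that library was left out (0.33, adjusted p = 0.00775).

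Set against its neighbours inside each library, CD274 was higher in every knockout library. The ratio of CD274 to the geometric mean of the 6 neighbours was 14.1, 13.4 and 14.2 in knockout and 10.7, 11.4 and 10.2 in wild-type libraries, a 1.30-fold difference (0.37 on the log2 scale; two-sided exact permutation p = 0.1, the smallest possible, adjusted p = 0.12 over 12 ratios, n = 3 per group). The geometric mean of the neighbours was itself 24.997, 26.0 and 25.4 CPM in knockout and 24.5, 23.3 and 23.3 CPM in wild-type libraries, a 1.08-fold difference. The same ratio for PDCD1LG2 was 0.290, 0.268 and 0.226 in knockout and 0.196, 0.193 and 0.169 in wild-type libraries, 1.40-fold apart, with the same p. Gene by gene, CD274 relative to a neighbour was 1.19-fold (KIAA2026) to 1.55-fold (ERMP1) higher in the knockout. The groups were apart for 5 of the 6 neighbours and overlapped for KIAA2026 (exact permutation p = 0.2).

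**Figure D2:**
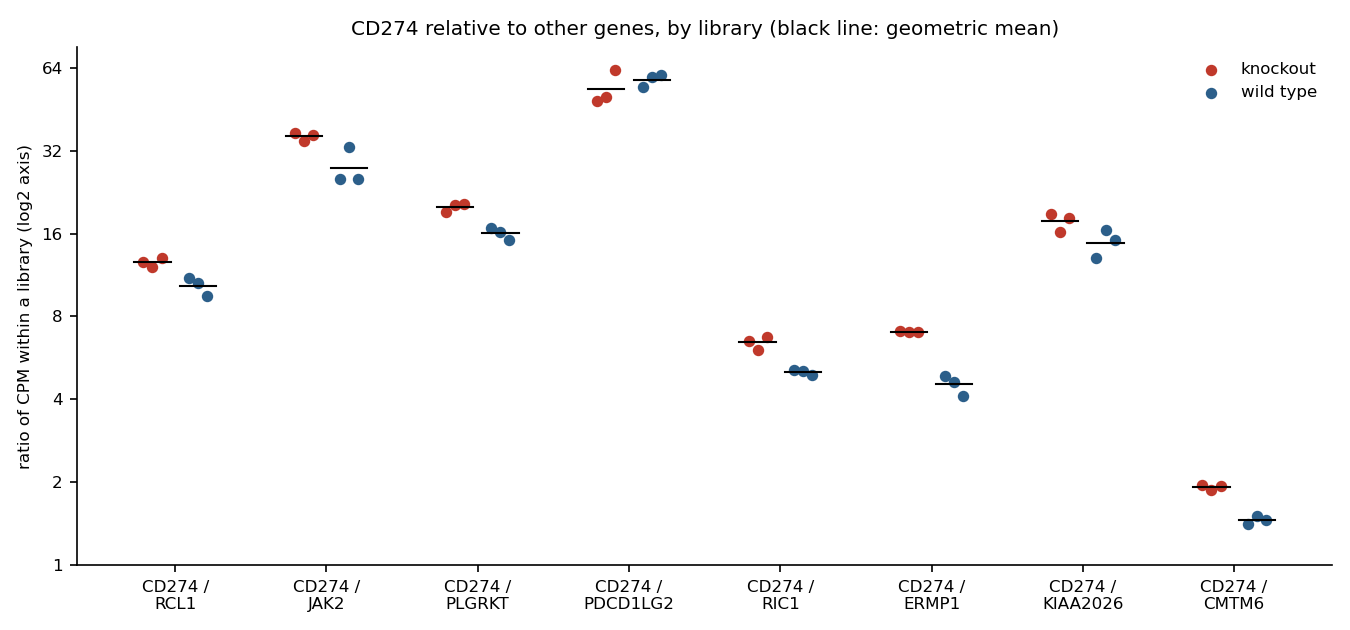
Ratio of CD274 CPM to that of 8 other genes within each library on a log2 axis, knockout in red at the left and wild type in blue at the right of each pair, black lines being geometric means of 3 libraries. Knockout ratios lie above all wild-type ratios for 6 genes, among them JAK2 and RIC1, and overlap them for PDCD1LG2 and KIAA2026.

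In a wider window, too, no tested gene apart from the ligands was called higher. Of 31 symbols within 2 Mb of the CD274 start, 20 were tested, and 3 were called: CD274 and PDCD1LG2 higher and ERMP1 lower. Without the ligands, 18 genes remained, of which 0 were higher and 1 lower (5.56% called, against 13.5% of all tested genes), with a median log2 fold change of 0.00 in size. Since 6.36% of all tested genes were called higher, a count of 0 among 18 lies near that share. DESeq2 and limma-voom gave the same counts for these 18, and at an unadjusted p under 0.05 edgeR had 4 higher and 2 lower. With the GC correction 1 was higher (RCL1) and 2 were lower. Within 0.5 Mb the other tested genes were JAK2, PLGRKT, RIC1, ERMP1 and MLANA, a melanocyte antigen gene. MLANA had 16, 11 and 21 counts in knockout and 6, 13 and 7 counts in wild-type libraries, which overlap (log2 fold change 0.88 ± 0.46, SE; edgeR adjusted p = 0.219). Of the 11 symbols within 2 Mb that were not tested, 4 were listed at 0 in every library, among them the insulin-like genes INSL4 and INSL6, and the cytokine gene IL33 had 0, 0 and 1 counts in knockout and 0, 0 and 2 counts in wild-type libraries. Between 2 and 10 Mb, 1 of 16 genes was higher and 0 lower. The short arm of chromosome 9 as a whole had 10 higher and 11 lower of 152 tested genes (13.8% called, median 0.01). The long arm had 26 higher and 42 lower of 436 (15.6%, median -0.01), near the 13.5% of all tested genes. With the GC correction the short arm had 18 higher and 14 lower and the long arm 84 higher and 34 lower, so that the balance of directions turned round on both arms. Over all tested genes the correction gave 1981 higher and 1060 lower, and a median log2 fold change of 0.024 against 0.0007 without it.

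**Figure D3:**
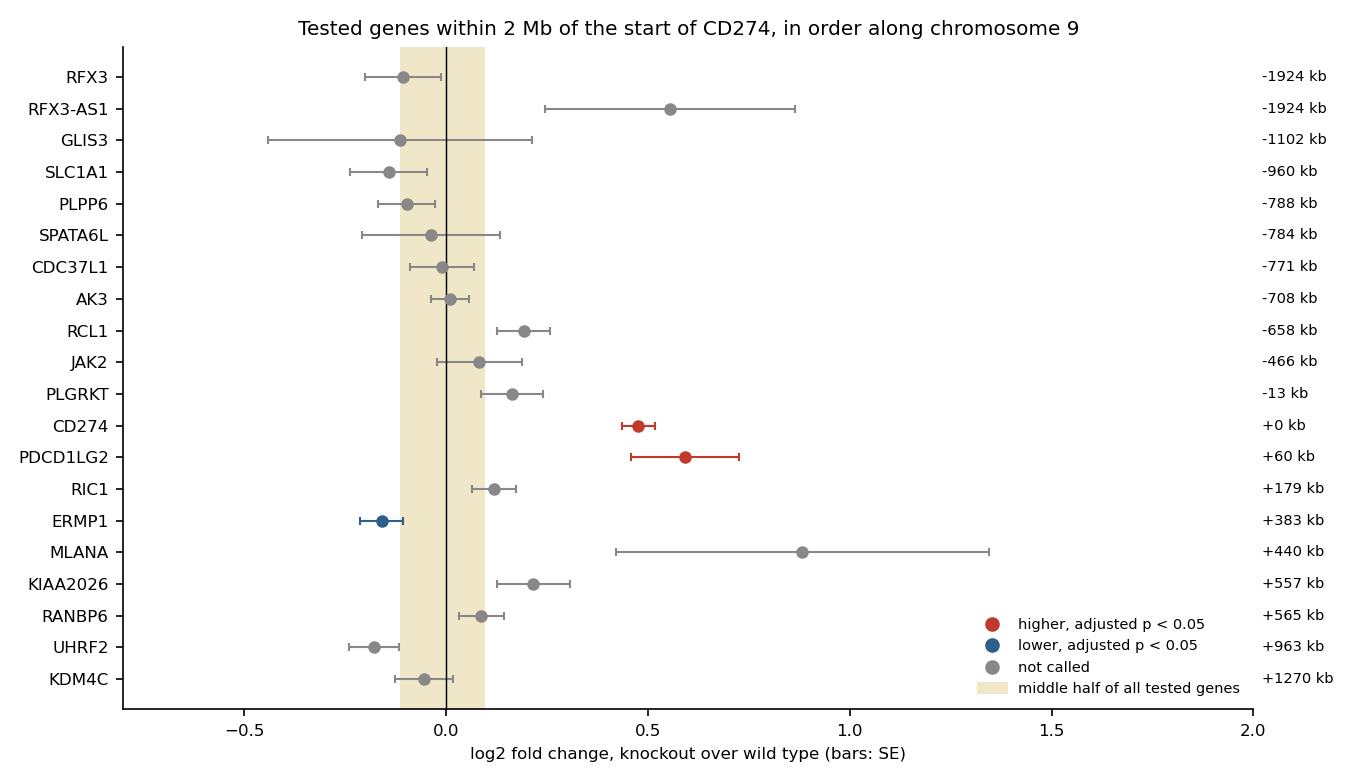
Log2 fold change (knockout over wild type, bars SE) of the 20 tested genes within 2 Mb of the CD274 start, in chromosome order, with the distance in kb at the right. The 2 red points are CD274 (0.48) and PDCD1LG2 (0.59), the blue point is ERMP1 (-0.16), grey points did not pass the test, and the band spans the middle of all tested genes from -0.11 to 0.09, the lower to the upper quartile.

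Of the transcripts for the 2 PD-L1 stabilisers, CMTM6 passed the test in neither direction and CMTM4 was lower. CMTM6 (chromosome 3, 32481312 to 32503408, minus strand) had 180.6, 186.8 and 187.3 CPM in knockout and 186.0, 176.1 and 162.6 CPM in wild-type libraries, and these overlap. Its log2 fold change was 0.08 ± 0.04 (SE; 95% interval -0.01 to 0.17; edgeR adjusted p = 0.251), and it passed the test in 1 of the 15 alternatives, without wild-type library 1 (0.12, adjusted p = 0.0460). CMTM6 shares 324 bases of exon with CMTM7 on the opposite strand. CMTM4 (chromosome 16, 66614750 to 66696707, minus strand) had 108.6, 116.0 and 117.9 CPM in knockout and 124.1, 123.6 and 128.0 CPM in wild-type libraries. All 3 knockout libraries were below all 3 wild-type libraries. CMTM4 fell to 91.2% of wild type (log2 fold change -0.13 ± 0.04, SE, n = 3 per group; edgeR adjusted p = 0.0467), a call lost without knockout library 1, 2 or 3 or wild-type library 2 (adjusted p up to 0.276). Per kilobase of exon, CMTM6 had 41.9 CPM in knockout and 39.6 in wild-type libraries, and CMTM4 had 14.1 in knockout and 15.4 in wild-type libraries. The CD274 level per kilobase was 2.06 times that of CMTM6 in knockout and 1.57 times in wild-type libraries, and the ratio of their CPM was 1.32-fold higher in the knockout (exact permutation p = 0.1, adjusted p = 0.12 over 12 ratios, n = 3 per group). Of the 7 tested CMTM family genes, 0 rose and 2 fell (28.6% called, against 13.5% of all tested genes), the other being CMTM8, with 3.71 ± 0.24 CPM in knockout and 5.12 ± 0.38 CPM in wild-type libraries (SD, n = 3; log2 fold change -0.46, edgeR adjusted p = 0.0295), a call lost without knockout library 1, 2 or 3 or wild-type library 2. DESeq2 and limma-voom also called 0 higher and 2 lower in this family, and 0 were higher at an unadjusted p under 0.05.

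The 10 genes fell in this order of level per kilobase of exon in wild-type libraries: CD274 (62.0 CPM per kilobase), CMTM6 (39.6), CMTM4 (15.4), PLGRKT (10.6), ERMP1 (8.62), RIC1 (5.91), RCL1 (5.85), KIAA2026 (2.18), PDCD1LG2 (1.86) and JAK2 (1.502). The library ranges of RIC1 and RCL1 overlapped there, as did those of KIAA2026 and PDCD1LG2 and of PDCD1LG2 and JAK2. In knockout libraries the order was CD274 (86.3), CMTM6 (41.9), CMTM4 (14.1), PLGRKT (11.9), ERMP1 (7.71), RCL1 (6.68), RIC1 (6.41), PDCD1LG2 (2.81), KIAA2026 (2.53) and JAK2 (1.59). PDCD1LG2 thus stood above KIAA2026 in knockout and below it in wild-type libraries, with overlapping ranges in each group, and RCL1 and RIC1 also overlapped in knockout libraries.

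Transcripts of the interferon gamma route to CD274 gave no call. Of 24 tested genes of interferon gamma and JAK-STAT signalling, 0 were higher and 0 lower, where 13.5% of all tested genes were called, with a median log2 fold change of -0.00. DESeq2 and limma-voom also gave 0, and at an unadjusted p under 0.05 edgeR had 0 higher and 4 lower. The kinase gene JAK1 had 139 CPM in knockout and 139 CPM in wild-type libraries, and the phosphatase gene PTPN1 314 CPM in knockout and 305 CPM in wild-type libraries. With the GC correction 2 of the 24 were higher and 2 lower, where it called 1981 of all 14409 tested genes higher and 1060 lower. Leaving out 1 library gave up to 2 calls. Of 19 tested interferon-induced genes 0 rose and 1 fell (5.26% called). That was ISG15, a ubiquitin-like modifier, with 29.03 ± 1.18 CPM in knockout and 35.7 ± 0.95 CPM in wild-type libraries (SD, n = 3; log2 fold change -0.30, edgeR adjusted p = 0.00215). In this list DESeq2 called 0 higher and 2 lower, limma-voom 0 higher and 1 lower, and at an unadjusted p under 0.05 edgeR had 1 higher and 2 lower. IRF1, the interferon-response factor, was not called, with 13.1 CPM in knockout and 13.6 CPM in wild-type libraries.

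Among 28 tested transcription factors and coactivators known to act on CD274, 3 rose, 2 fell and 23 did not pass, with a median log2 fold change of 0.00. These calls are 17.9% of the list, against 13.5% of all tested genes. The GC correction gave 6 higher and 1 lower, where it called 1981 of all 14409 tested genes higher and 1060 lower. FOS, an AP-1 subunit, had 14.4 ± 1.00 CPM in knockout and 10.8 ± 0.26 CPM in wild-type libraries (SD, n = 3; log2 fold change 0.42, edgeR adjusted p = 0.00267). MYC, a factor reported to drive CD274 in other tumour lines, had 460 ± 7.30 CPM in knockout and 537 ± 14.0 CPM in wild-type libraries and thus fell (log2 fold change -0.22, edgeR adjusted p = 6.28e-05). The hypoxia factor gene HIF1A rose by 0.16 on the log2 scale, and FOSL1, another AP-1 subunit, fell by 0.14 on that scale. FOS and MYC kept their calls in all 15 alternatives. HIF1A lost its call in 6 of them, where the GC correction gave 0.08, and FOSL1 in 4, where it gave -0.04.

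Of 27 tested genes of PD-L1 protein turnover and trafficking, 0 rose and 1 fell (3.70% called, against 13.5% of all tested genes). The gene that fell was GSK3B itself, and the ubiquitin ligase adaptor gene BTRC had 49.6 CPM in knockout and 52.1 CPM in wild-type libraries. For this list DESeq2 called 0 higher and 2 lower, limma-voom 0 higher and 1 lower, and at an unadjusted p under 0.05 edgeR had 2 higher and 5 lower. The GC correction gave 4 higher and 2 lower, where it called 1981 of all 14409 tested genes higher and 1060 lower. Of 15 tested genes of PD-L1 glycosylation 0 rose and 2 fell, 13.3% called and so near the 13.5% of all tested genes. EDEM1, which helps remove misfolded glycoproteins, fell by 0.13 on the log2 scale. DESeq2 and limma-voom gave the same counts for this list, and at an unadjusted p under 0.05 edgeR had 1 higher and 2 lower. With the GC correction 3 were higher and 1 lower. EDEM1 lost its call without knockout libraries 1 or 2 or wild-type library 2.

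Of 17 tested genes of the B7 family and other T-cell checkpoint ligands 2 rose, 1 fell and 14 did not pass, with a median log2 fold change of -0.05. These calls are 17.6% of the list, against 13.5% of all tested genes. PVR, the ligand of TIGIT, had 142 ± 4.34 CPM in knockout and 127 ± 2.54 CPM in wild-type libraries (SD, n = 3; log2 fold change 0.16, edgeR adjusted p = 0.0140). NCR3LG1, which binds a receptor of natural killer cells, had 162 ± 2.63 CPM in knockout and 147 ± 2.45 CPM in wild-type libraries (log2 fold change 0.14, edgeR adjusted p = 0.0234). BTN3A1, a butyrophilin seen by gamma-delta T cells, had 10.3 ± 0.34 CPM in knockout and 13.3 ± 1.07 CPM in wild-type libraries (log2 fold change -0.37, edgeR adjusted p = 0.0107). Each of these 3 calls was lost without some library, in 3, 4 and 2 alternatives in that order. Of 4 tested genes of PD-1 receptors and effectors, PTPN11 rose and 3 did not pass, 25% called against 13.5% of all tested genes. DESeq2 and limma-voom each called 1 higher and 0 lower in this list. At an unadjusted p under 0.05 edgeR had 1 higher and 1 lower, and the GC correction gave 2 higher and 0 lower. PTPN11, the phosphatase recruited by PD-1 in T cells, had 353 ± 8.77 CPM in knockout and 313 ± 17.2 CPM in wild-type libraries (log2 fold change 0.17, edgeR adjusted p = 0.00420), and it shares exon bases with RPL6 on the opposite strand. The log2 fold changes of the called genes in these 8 lists were all smaller in size than that of CD274, apart from GSK3B.

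**Figure D4:**
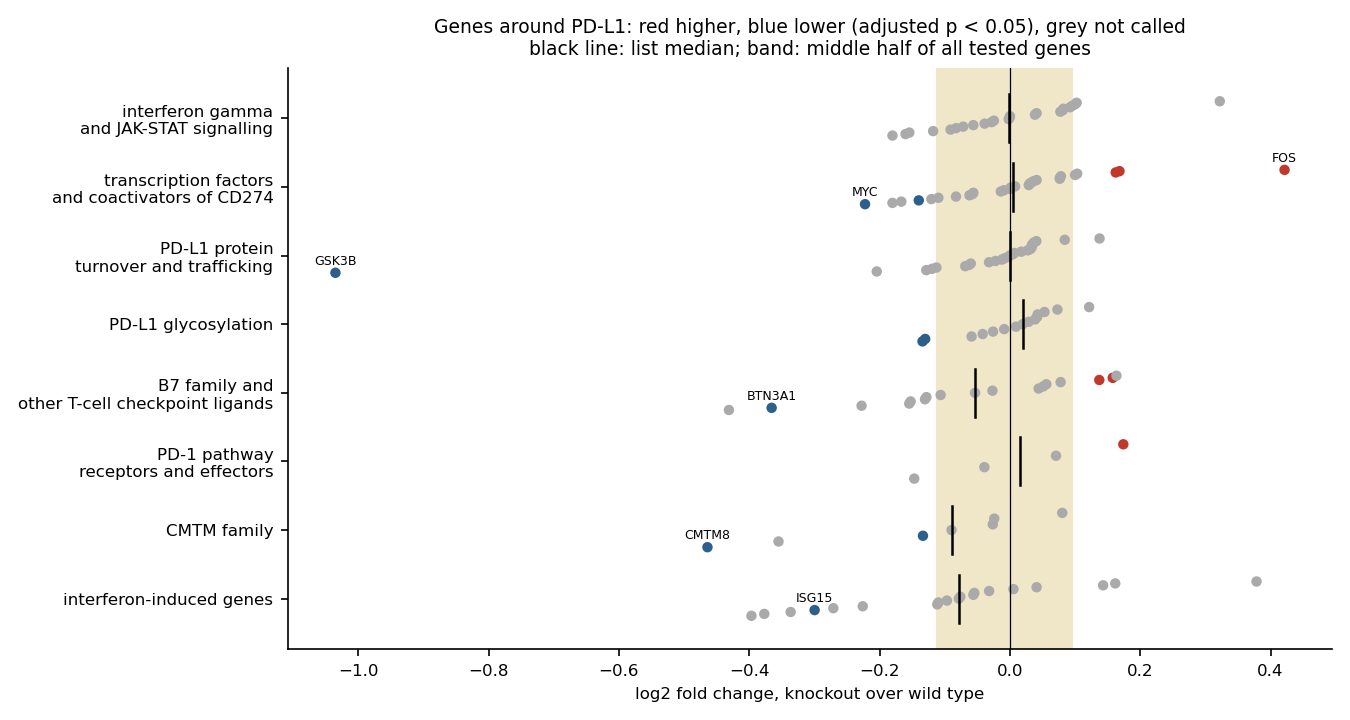
Log2 fold change (knockout over wild type) of every tested gene in 8 lists around PD-L1, with called genes in red (higher) or blue (lower), names for called genes past 0.2 in size, list medians as black lines and the band from the lower to the upper quartile of all tested genes. The interferon gamma and JAK-STAT list has 24 grey points and no coloured one, and list medians lie between -0.09 and 0.02.

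The genes whose log2 CPM followed that of CD274 most closely over the 6 libraries were KBTBD8 (Pearson r 0.999), HSPA8 (0.998), ANP32B (0.998), SLC4A8 (0.998) and MAT2A (0.997), out of 11229 genes averaging 5 CPM or more. None lies at 9p24.1: they are on chromosomes 3, 11, 9, 12 and 2. For PDCD1LG2 they were WDR36 (0.999), COA7 (0.999), EML5 (0.997), TRMT2B (0.997) and TXLNG (0.997), on chromosomes 5, 1, 14, X and X. Since the 6 points form 2 groups that differ in level, any gene that is higher in the knockout with little spread scores high, and 310 genes for CD274 and 218 for PDCD1LG2 had an r above 0.95. These values are a description of 6 libraries.

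**Figure D5:**
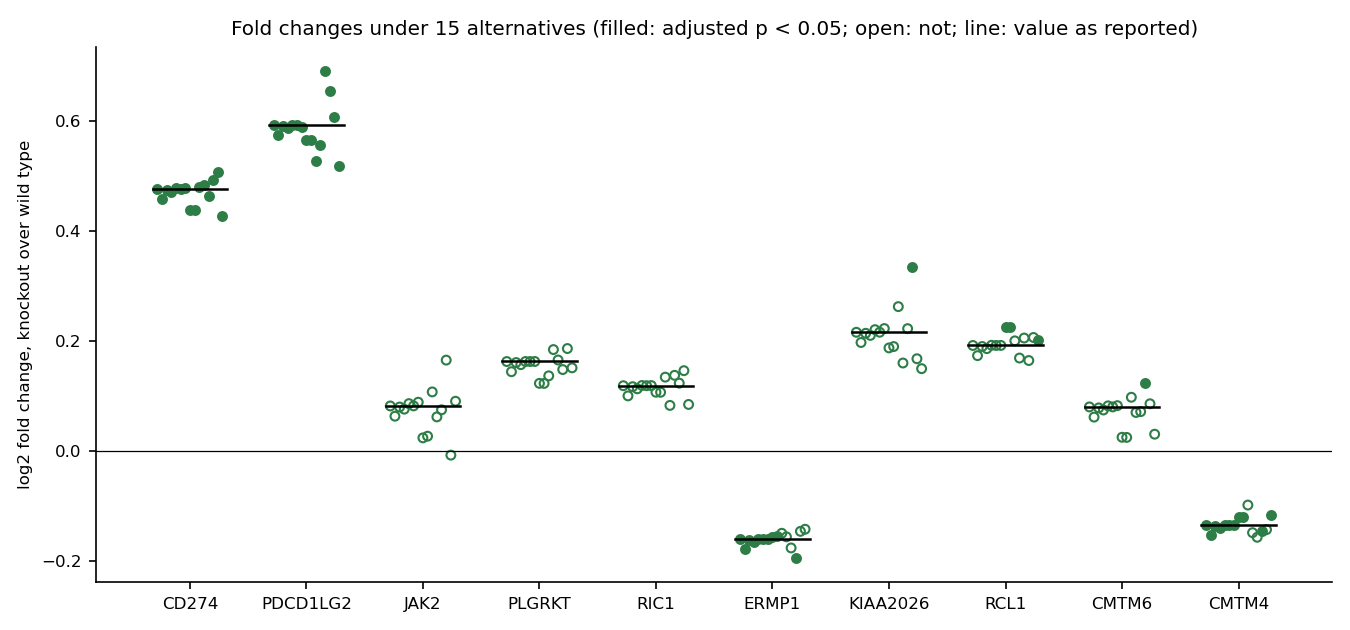
Log2 fold change (knockout over wild type) of the 10 genes under 15 alternative analyses, filled where the adjusted p was under 0.05 and open where not, with the reported value as a black line. CD274 (0.43 to 0.51) and PDCD1LG2 (0.52 to 0.69) are filled throughout, JAK2 crosses 0, and ERMP1 and CMTM4 are open in 5 and 4 alternatives.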

How the data were processed

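Each of the 6 libraries had 1 table of raw whole-number counts per gene symbol, as deposited, with no normalization. Per the labels' protocols, RNA was extracted with TRIzol and polyadenylated RNA was made into libraries with a VAHTS kit and sequenced as paired 150 bp reads. The submitters' processing notes name hg38, TopHat, limma and edgeR. The sources used here give no counting program, annotation or strand setting. Of 28278 symbols, 8380 were at 0 in all libraries and 26216 matched GENCODE 29, the source of coordinates and exon lengths.

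Groups came from the sample titles. Genes were kept by filterByExpr (count of at least 10, total of at least 15) and tested with edgeR 4.0.16 in R 4.3.3: TMM scaling, robust quasi-likelihood fit with group as the only term, and Benjamini-Hochberg adjustment over all 14409 tested genes at 0.05. The test was checked on counts simulated independently for each library from the fitted means and dispersions. These held no GC-dependent difference between libraries, so the check does not cover that of wild-type library 3. Depth was 32379369 to 33558362 counts per library. Within groups the chi-square per degree of freedom between libraries was 3.11 to 9.30, above sampling noise and largest between wild-type libraries 1 and 3. Each library was counted as 1 replicate, but this spread does not show whether the libraries came from separate cultures. Ratios within libraries were compared by two-sided exact permutation tests, 20 permutations each. Level comparisons between genes used CPM per kilobase of exon, with percentiles over the tested genes that have an exon length.

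The genes described and all gene lists were chosen with earlier results of these data known. Named genes were the 10 genes, GSK3B and GSK3A, all tested genes within 0.5 Mb of CD274 and called ones within 2 Mb. From each list up to 4 called genes with the largest change were named, or the 2 most abundant where none was called, and for the ligands the 5 genes most alike over libraries. INSL4, INSL6, IL33, CD80, PDCD1, HSPH1, IRF1, BTRC and FOSL1 were named outside this rule. Some genes taken by the rule go unreported here. Alternatives were RLE scaling, library size alone, no filter, a filter of 1 CPM in 3 libraries, DESeq2 1.42.0, limma-voom (limma 3.58.1), a GC correction (spline with 5 degrees of freedom), the replicate number as a block, both together, and leaving out each library.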

Additional observations from a re-analysis of the deposited data

How the results depend on the processing

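CD274 (0.43 to 0.51) and PDCD1LG2 (0.52 to 0.69) kept their direction and call in all 15 alternatives, with highest adjusted p of 1.04e-06 and 0.0358 (edgeR, Benjamini-Hochberg). CD274 relative to its neighbours stayed between 0.33 and 0.41 in the 9 alternatives for which it was computed. RLE scaling and library size alone are among them and cannot change a ratio within a library. Only the GC correction and leaving out each library could move it. Leaving out 1 library gave 950 to 2531 called genes in all, 2 to 4 within 2 Mb of CD274, 43 to 113 on chromosome 9, 6 to 24 in the 8 lists (15 with all libraries) and 2 to 6 of the 10 genes described, 2 of them without any knockout library or wild-type library 2, and 6 without wild-type library 1. The same step gave log2 fold changes of -0.19 to -0.14 for ERMP1, -0.16 to -0.10 for CMTM4, 0.15 to 0.33 for KIAA2026, 0.16 to 0.21 for RCL1 and 0.031 to 0.12 for CMTM6. It gave -0.0074 to 0.17 for JAK2, -0.010 to 0.073 for GSK3A and -0.023 to 0.018 for JAK1, and the cause of these changes of sign was not tested.

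The GC correction gave 3041 calls in all, 65.1% of them higher against 47.0% without it, 5 within 2 Mb, 150 on chromosome 9 (102 higher and 48 lower, against 36 higher and 53 lower without it), 29 in the lists, 0.23 for RCL1 and 0.0195 for JAK1. Under that correction the median log2 fold change of all tested genes was 0.024, against 0.0007 without it. Library size alone gave 34.6% higher and a median of -0.02. With the replicate block added to the GC correction, the values were 3061, 5, 149, 31, 0.23 and 0.0196. The cause was not tested. The replicate block alone gave 2193 calls, 4 of the 10 genes and 0.48 for CD274 (edgeR, adjusted p = 1.72e-10). Whether replicate numbers pair the libraries was not settled: deviations of same-numbered libraries correlated at 0.07, -0.00 and 0.03, and 3 of 6 libraries correlated best with their own number. Counts of 131 to 238 limit what can be said of PDCD1LG2.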
